A study of Mus musculus with 9 samples.

Results

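The miR-29 family of microRNAs (miRNAs) was examined in 3 adipose depots of obese mice. Its members were the entries of the miRNA table whose name starts with miR-29a-, miR-29b- or miR-29c-, which gave 7 of 1251 miRNAs: the strands miR-29a-3p, miR-29b-3p, miR-29c-3p, miR-29a-5p, miR-29b-1-5p, miR-29b-2-5p and miR-29c-5p. Small RNA had been sequenced from interscapular brown adipose tissue (BAT), inguinal subcutaneous adipose tissue (SAT) and epididymal visceral adipose tissue (VAT), with 3 libraries per depot and 9 in all. SAT and VAT are the white adipose tissues (WAT). All libraries came from wild type male mice of the strain C57BL/6J, aged 5 to 6 weeks before the feeding, which then ate a high fat diet (HFD), with 45% of the energy from fat, for 11 weeks. No lean control group was analysed here, so every comparison is between depots of obese mice. The libraries are named by depot and by the number in their labels: BAT 12, 15 and 20, SAT 14, 19 and 20, and VAT 14, 17 and 20. The sources do not say whether equal numbers mark the same mouse, and p-values measure the spread between these libraries.

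An miRNA is cut from an RNA hairpin, and 1 strand of the resulting duplex, the guide, is loaded into an Argonaute protein and represses mRNAs that pair with its seed, while the other strand, the passenger, is mostly degraded. In the miR-29 family the 3p strands are the guides. The family is known for repressing mRNAs of the extracellular matrix, such as those of collagens, elastin and fibrillin, and of DNA methyltransferases. In cultured adipocytes and in liver it is also known to act on insulin signalling.

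The sequences of the guide strands are shown because the members share a seed and differ in only a few bases after it. They were read from RefSeq (GRCm38.p6), where all 7 strands were matched by name. Capitals mark the seed, bases 2 to 8, counted from 1 at the 5′ end.
miR-29a-3p: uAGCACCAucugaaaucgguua
miR-29b-3p: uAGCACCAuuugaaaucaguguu
miR-29c-3p: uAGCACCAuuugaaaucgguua
From miR-29a-3p to miR-29c-3p the single difference was C10U, so 21 of 22 bases were identical. From miR-29b-3p to miR-29c-3p the differences were A18G, G21U and U22A, and 19 of 22 bases were identical. From miR-29a-3p to miR-29b-3p they were C10U, G18A, U21G and A22U. The seed AGCACCA was found in 3 of the 1001 miRNAs of the table that had a sequence, and these were the 3 guide strands themselves.

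The 4 genes lie in 2 pairs. On chromosome 6, on the minus strand, the mature miR-29a-3p of Mir29a lies at chr6:31062673-31062694 and the miR-29b-3p of Mir29b-1 at chr6:31063025-31063047, with 275 bases between the hairpins. On chromosome 1, on the plus strand, the miR-29b-3p of Mir29b-2 lies at chr1:195037091-195037113 and the miR-29c-3p of Mir29c at chr1:195037600-195037621, with 426 bases between the hairpins. Per GENCODE (release M21, GRCm38), the hairpins of Mir29b-2 and Mir29c lie within an exon of a retained-intron transcript of the non-coding gene A330023F24Rik on the same strand, and within an exon of Cd46, a complement regulator, on the opposite strand. Mir29b-1 shares 2 bases with the end of the exon of the long non-coding gene Gm27019 on the same strand, and Mir29a overlaps no other gene. The hairpins of both Mir29b genes are shown because they hold the same guide strand and different passenger strands (capitals mark the mature strands, 5p first).
Mir29b-1: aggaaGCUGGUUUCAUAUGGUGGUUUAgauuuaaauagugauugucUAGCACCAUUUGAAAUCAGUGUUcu
Mir29b-2: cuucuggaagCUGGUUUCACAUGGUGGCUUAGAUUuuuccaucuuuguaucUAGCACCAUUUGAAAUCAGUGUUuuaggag
A read of miR-29b-3p therefore cannot be assigned to 1 of these genes, whereas miR-29b-1-5p and miR-29b-2-5p name theirs.

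The values are normalized expression values on the log2 scale, as deposited. Their lowest value, 3.32, is the log2 of 10 and marks a miRNA that is not told apart from absence. The study's methods name an added constant of 40, which differs from this lowest value, so folds of low miRNAs are those of the deposited scale and change with the constant. Read counts are not part of the table, so sequencing depth is unknown and no counting interval is given. Above the lowest value were 255 to 273 miRNAs in the BAT libraries, 240 to 285 in SAT and 323 to 349 in VAT. The depots were checked by summed, unlogged values of marker miRNAs. The brown fat markers (miR-193b-3p, miR-365-3p and miR-378a-3p) summed to 164763 to 462095 in BAT, 36501 to 38345 in SAT and 51886 to 78555 in VAT, and the white fat marker miR-196a-5p was at the lowest value in the 3 BAT libraries and above it in all SAT and VAT libraries, with 1474 to 1946 in SAT and 573 and 758 in VAT 20 and VAT 17 but 15.6 in VAT 14. Some libraries stood apart within their depot: the skeletal muscle markers summed to 151602 in BAT 15, 420564 in BAT 20 and 151425 in VAT 20 against 1130 in BAT 12, the leukocyte markers to 113176 in SAT 20, and the epithelial markers to 20927 in SAT 14.

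MiR-29a-3p was the abundant member in every depot. Its log2 value was 13.56 in BAT 12, 13.56 in BAT 15 and 12.89 in BAT 20. In SAT it was 13.40, 13.51 and 14.18 in libraries 14, 19 and 20, and in VAT it was 13.69, 13.63 and 13.69 in libraries 14, 17 and 20. The levels thus lay within a narrow band in all 9 libraries, with BAT 20 the lowest and SAT 20 the highest, and miR-29a-3p ranked between 24 and 40 among the 1251 miRNAs. The depot means were 13.34 ± 0.39 (SD, n = 3) in BAT, 13.70 ± 0.42 (SD, n = 3) in SAT and 13.67 ± 0.033 (SD, n = 3) in VAT, and no neighbours in this order differed beyond their spread.

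MiR-29c-3p lay far lower, and its levels were ordered by depot. Its log2 value was 5.72 in BAT 12, at the lowest value in BAT 15 and 6.04 in BAT 20. In SAT it was 6.16, 8.17 and 7.81 in libraries 14, 19 and 20, and in VAT it was 8.31, 8.55 and 8.92 in libraries 14, 17 and 20. Every SAT library was above every BAT library and every VAT library above every SAT library, although SAT 14 exceeded BAT 20 by little. The depot means were 5.03 ± 1.48 (SD, n = 3) in BAT, 7.38 ± 1.07 (SD, n = 3) in SAT and 8.59 ± 0.31 (SD, n = 3) in VAT.

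MiR-29b-3p, the guide strand made by 2 genes, was the least abundant of the guides. It was at the lowest value in BAT 12, BAT 15 and BAT 20. In SAT its log2 value was 4.55, 5.20 and 5.94 in libraries 14, 19 and 20, and in VAT it was 6.55, 6.03 and 6.63 in libraries 14, 17 and 20. The order BAT, SAT, VAT held again without overlap, with means of 5.23 ± 0.70 (SD, n = 3) in SAT and 6.40 ± 0.33 (SD, n = 3) in VAT. Of the 343 miRNAs that exceeded the lowest value in 3 or more libraries and were tested, 27 (7.87%) had this order without overlap, miR-29b-3p and miR-29c-3p among them. The lowest value in all BAT libraries and a higher value in all 6 WAT libraries were seen for 14 (4.08%), miR-29b-3p included.

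**Figure D1:**
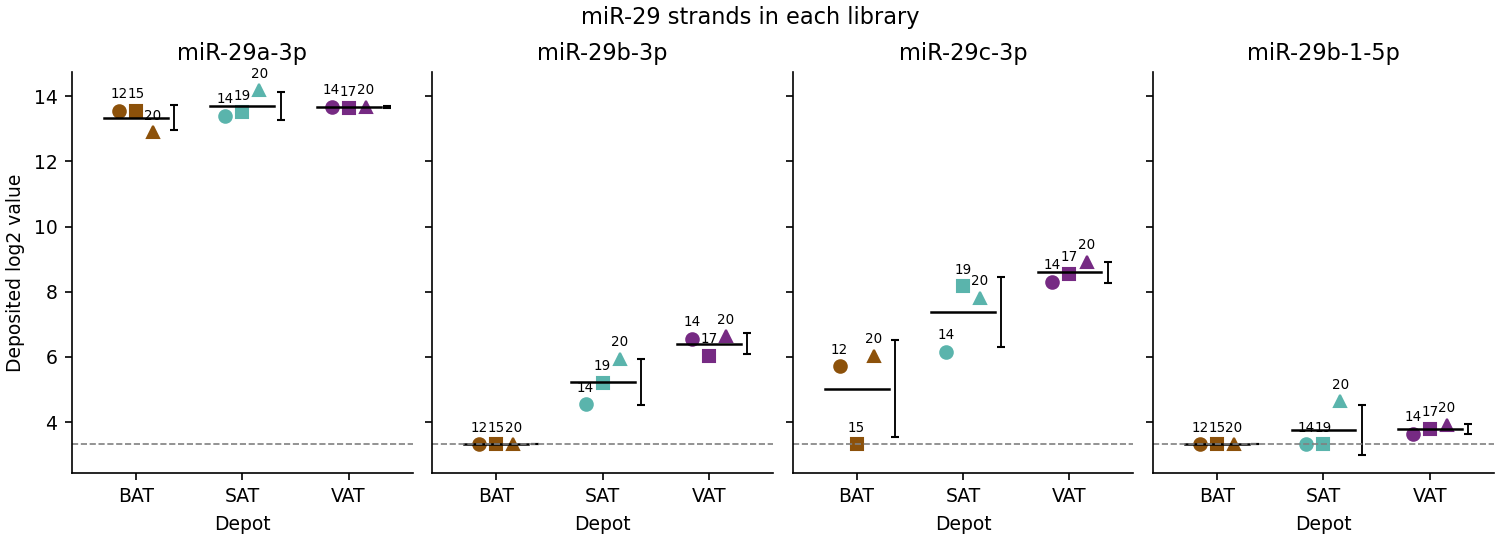
Log2 values (y axis, as deposited) of the miR-29 strands in the 9 libraries, grouped by depot. Each point is 1 library with its number, the horizontal bar is the depot mean, the error bar the SD (n = 3), and the dashed line the lowest value of the table, 3.32. MiR-29a-3p stays between 12.89 and 14.18 in all depots, while miR-29b-3p and miR-29c-3p lie higher in SAT than in BAT and highest in VAT, without overlap.

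The passenger strands were at or near the lowest value. MiR-29a-5p, the partner of the abundant guide, and miR-29b-2-5p were at the lowest value in all 9 libraries. MiR-29b-1-5p was above it in 4 libraries, with 4.64 in SAT 20 and 3.63, 3.80 and 3.92 in VAT 14, 17 and 20. MiR-29c-5p was above it in 2 libraries, with 3.54 in VAT 14 and 3.80 in VAT 17. No passenger strand was above the lowest value in BAT. Where seen in VAT, miR-29b-1-5p and miR-29c-5p ranked 290 to 326, whereas only 255 to 273 miRNAs were above the lowest value in BAT libraries. A strand at such a rank could not have been seen in BAT. Sequences of the passenger strands that were seen are given with the seed in capitals, since miR-29b-1-5p alone names 1 of the Mir29b genes as a source.
miR-29b-1-5p: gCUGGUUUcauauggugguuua
miR-29c-5p: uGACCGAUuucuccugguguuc

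The comparisons asked which miRNAs differ between depots, and 4 of the 7 strands entered them. MiR-29a-3p was above the lowest value in all 9 libraries, as were 53.6% of the tested miRNAs, miR-29c-3p in 8, miR-29b-3p in 6 and miR-29b-1-5p in 4, so the last pair passed the filter only through the WAT libraries where they are higher. MiR-29a-5p, miR-29b-2-5p and miR-29c-5p were not tested. The test was limma's moderated test on the 6 libraries of a comparison, two-sided, with p adjusted over the 343 miRNAs by the Benjamini-Hochberg method, and a miRNA was called at an adjusted p under 0.05. Because each library is a piece of whole tissue, fewer cells of a type and less RNA per cell cannot be told apart.

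In VAT/BAT, miR-29c-3p and miR-29b-3p were more highly expressed in VAT than in BAT, and miR-29a-3p and miR-29b-1-5p were not called. Among all tested miRNAs 66.2% were called in this comparison, 39.4% as higher and 26.8% as lower in VAT, so a call was common. MiR-29c-3p was 11.9-fold higher (log2 fold change 3.57 ± 0.73 SE, 95% interval 1.80 to 5.34, limma adjusted p = 0.00603) and had the 41st largest absolute change of the 343. Without BAT 15, where it was at the lowest value, its log2 fold change was 2.72 with a limma adjusted p of 0.00123, and without BAT 20 it was 4.07 with 0.00560, in a range of 0.00123 to 0.103 over all alternatives. MiR-29b-3p was at least 8.46-fold higher than the lowest value at which all BAT libraries stood (log2 difference 3.08 ± 0.25 SE, limma adjusted p = 0.000216), and BAT has no spread of its own in that test. The log2 difference of miR-29b-3p was 1.32 with a further 40 added and 6.24 with the lowest value subtracted and 1 added, and that of miR-29c-3p was 2.44 and 4.80, all of them called by limma.

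MiR-29a-3p, the most abundant guide, had a log2 fold change of 0.33 ± 0.26 SE in VAT/BAT (95% interval -0.31 to 0.97, limma adjusted p = 0.300). Its 3 VAT libraries were above its 3 BAT libraries, as was the case in that direction for 44.3% of the tested miRNAs. The interval runs from 0.805-fold to 1.96-fold, which leaves out changes of the size seen for both other guides. MiR-29b-1-5p had a log2 difference of 0.46 ± 0.20 SE (95% interval -0.034 to 0.96, limma adjusted p = 0.0884), also without overlap. Its VAT ranks of 290 to 315 lay beyond the at most 273 miRNAs above the lowest value in a BAT library. The median log2 fold change of all tested miRNAs was 0.40, close to the values of miR-29a-3p and miR-29b-1-5p.

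In SAT/BAT, miR-29b-3p alone was called, at least 3.76-fold higher in SAT than the lowest value of BAT (log2 difference 1.91 ± 0.37 SE, 95% interval 0.94 to 2.89, limma adjusted p = 0.0141). Among all tested miRNAs 40.5% were called, 22.4% as higher and 18.1% as lower in SAT. MiR-29b-3p entered the test only through the WAT libraries, and without the filter it was not called (limma adjusted p = 0.0998). Without BAT 12 the log2 difference was also 1.91 with a limma adjusted p of 0.0504, and without SAT 20 it was 1.56 with 0.0190, in a range of 0.00231 to 0.0998 over all alternatives. The log2 difference was 0.66 with a further 40 added and 4.79 with the lowest value subtracted and 1 added. MiR-29c-3p was 5.12-fold higher in SAT (log2 fold change 2.36 ± 0.97 SE, 95% interval -0.17 to 4.88), without overlap, but was not called (limma adjusted p = 0.116). Without BAT 15 its log2 fold change was 1.50. Groups without overlap and with SAT higher were seen for 31.5% of the tested miRNAs.

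MiR-29a-3p had a log2 fold change of 0.36 ± 0.31 SE in SAT/BAT (95% interval -0.45 to 1.17, limma adjusted p = 0.417), with overlapping libraries. The median of all tested miRNAs was 0.26. MiR-29b-1-5p was above the lowest value in SAT 20 only, so its log2 difference of 0.44 ± 0.41 SE (limma adjusted p = 0.420) rests on that library.

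In VAT/SAT, no miR-29 strand was called by limma, while 16% of all tested miRNAs were, 8.45% as higher and 7.58% as lower in VAT. Without moderation of the variance no miR-29 strand was called either, and only 13 of the 343 miRNAs were. MiR-29b-3p was 2.25-fold higher in VAT than in SAT (log2 fold change 1.17 ± 0.40 SE, 95% interval 0.13 to 2.21) with an unadjusted p of 0.0346 and an adjusted p of 0.114 by limma, and it was the 1 strand of the 4 tested with an unadjusted p under 0.05. MiR-29c-3p was 2.31-fold higher in VAT (log2 fold change 1.21 ± 0.58 SE, 95% interval -0.29 to 2.71, limma adjusted p = 0.208). Without SAT 14 its log2 fold change was 0.60, and without SAT 19 it was 1.60. Both guides were without overlap, as were 22.4% of the tested miRNAs in this direction.

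MiR-29a-3p differed between VAT and SAT by -0.028 ± 0.23 SE on the log2 scale (95% interval -0.62 to 0.57, limma adjusted p = 0.963). Without SAT 20, the library with the highest miR-29a-3p value and the largest leukocyte marker sum, the difference was 0.21 in favour of VAT with a limma adjusted p of 0.207, in a range of 0.207 to 1 over all alternatives. The log2 difference of miR-29b-1-5p was 0.023 ± 0.41 SE (limma adjusted p = 0.998), and its direction turned when SAT 14, SAT 19 or VAT 20 was left out. The median log2 fold change of all tested miRNAs was 0.10.

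**Figure D2:**
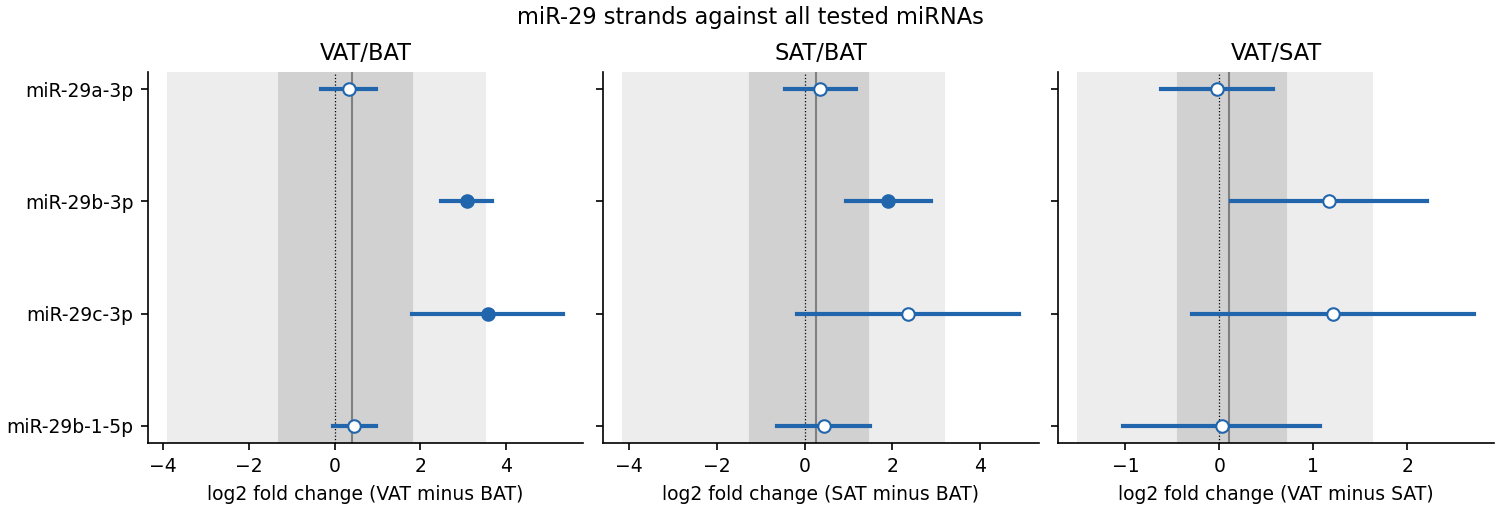
Log2 fold changes (x axis) of the 4 tested miR-29 strands in VAT/BAT, SAT/BAT and VAT/SAT, with 95% intervals from limma as lines and filled points at an adjusted p under 0.05. Grey bands span the 5th to 95th (light) and the 25th to 75th (dark) percentiles of all 343 tested miRNAs, and the grey line is their median. MiR-29b-3p is filled in VAT/BAT and SAT/BAT, miR-29c-3p in VAT/BAT only, and miR-29a-3p lies near the grey line in each panel.

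The guides were then compared within each library, since a factor common to all miRNAs of a library cancels in the difference between 2 of them. An added constant or a normalization by rank does not cancel. The mature strands are 22, 23 and 22 bases long for miR-29a-3p, miR-29b-3p and miR-29c-3p, so no correction for length was made. Small RNA libraries can recover strands unequally, and the differences are those of the deposited values. The 3 pairs of guides were tested over the 3 depots with an exact permutation test of the F statistic (1680 assignments of the 9 libraries, smallest possible p 0.00357), adjusted over the 3 pairs.

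The distance between miR-29a-3p and miR-29b-3p narrowed from BAT to VAT. In log2 units miR-29a-3p exceeded miR-29b-3p by 10.24, 10.24 and 9.57 in BAT 12, 15 and 20, which are lower bounds because miR-29b-3p was at the lowest value. The difference was 8.85, 8.30 and 8.24 in SAT 14, 19 and 20, and 7.14, 7.60 and 7.06 in VAT 14, 17 and 20. The 3 depots did not overlap. The means correspond to an excess of miR-29a-3p of at least 1037-fold in BAT, 353-fold in SAT and 154-fold in VAT, and the exact permutation p was 0.00357, the smallest possible (adjusted p = 0.0107). The mean difference in BAT minus that in VAT was 2.75, and it was 0.996 with a further 40 added and 5.91 with the lowest value subtracted and 1 added.

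The distance between miR-29a-3p and miR-29c-3p was 7.84, 10.24 and 6.86 in BAT 12, 15 and 20, 7.24, 5.34 and 6.37 in SAT 14, 19 and 20, and 5.38, 5.08 and 4.76 in VAT 14, 17 and 20. Each WAT depot thus had smaller mean differences than BAT, but SAT overlapped with BAT and with VAT. The means were 8.31 ± 1.74 (SD, n = 3) in BAT, 6.31 ± 0.95 (SD, n = 3) in SAT and 5.08 ± 0.31 (SD, n = 3) in VAT, or at least 318-fold, 79.5-fold and 33.7-fold, with an exact permutation p of 0.025 (adjusted p = 0.0375). The BAT mean holds the lower bound of BAT 15, and over BAT 12 and BAT 20 alone it was 7.35, or 163-fold. This result was lost at an adjusted p of 0.0643 to 0.139 when BAT 12, BAT 15, SAT 14, SAT 20 or any VAT library was left out.

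Between miR-29c-3p and miR-29b-3p the log2 difference was 1.70 ± 1.48 (SD, n = 3) in BAT, 2.15 ± 0.72 (SD, n = 3) in SAT and 2.19 ± 0.39 (SD, n = 3) in VAT. It ranged from 0 in BAT 15, where both were at the lowest value, to 2.97 in SAT 19, and BAT 12 and BAT 20 give lower bounds. The value of BAT 15 is undetermined, as is the BAT mean that contains it. The exact permutation p was 0.882 (adjusted p = 0.882), and the depots overlapped.

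**Figure D3:**
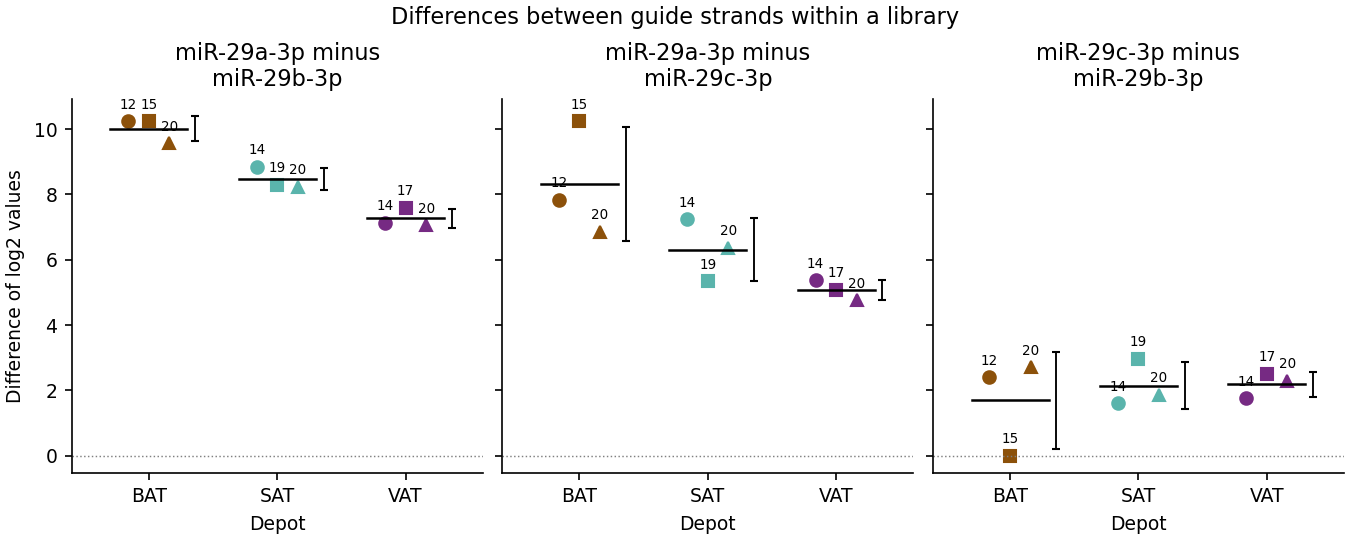
Log2 difference between 2 miR-29 guide strands within each library (y axis) by depot, with 1 panel per pair. Points are libraries with their numbers, bars are means and error bars SD (n = 3). MiR-29a-3p minus miR-29b-3p falls from a mean of 10.02 in BAT to 8.46 in SAT and 7.27 in VAT without overlap, and miR-29c-3p minus miR-29b-3p stays near 2 with a wide spread in BAT.

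In unlogged values the family remained dominated by miR-29a-3p. It made up 99.0 to 99.8% of the summed guide value in the BAT libraries, 97.3 to 99.1% in SAT and 95.8 to 97.0% in VAT. MiR-29c-3p accounted for 0.0824 to 0.854% in BAT, 0.657 to 2.41% in SAT and 2.33 to 3.52% in VAT. The 0.0824% is that of BAT 15 and is set by the lowest value. The share of miR-29b-3p was 0.0821 to 0.130% in BAT, where it is set by the lowest value, 0.215 to 0.327% in SAT and 0.498 to 0.718% in VAT. As the guides share a seed, their sum was also taken: it was 7682 to 12176 in BAT, 10914 to 18855 in SAT and 13121 to 13782 in VAT, and it was 0.318 to 0.780% of the table's total in all libraries. The SAT range overlapped with both others, and VAT was above BAT in each library.

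Across the 9 libraries miR-29b-3p and miR-29c-3p had a Pearson correlation of 0.884, miR-29a-3p and miR-29b-3p of 0.595, and miR-29a-3p and miR-29c-3p of 0.352. The 9 points share 3 depots, so these values describe mainly the order of the depots and carry no test. By the same measure, the 3 other tested miRNAs most like miR-29b-3p were miR-350-3p (0.970), miR-152-3p (0.964) and miR-99a-3p (0.958). All were at the lowest value in BAT, and their mean log2 values were 5.86, 5.82 and 5.82 in SAT and 6.79, 7.07 and 6.62 in VAT.

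Most like miR-29c-3p were let-7g-5p (0.933), miR-98-5p (0.931) and miR-148a-3p (0.917). Their depot means also had the order BAT, SAT, VAT, with 12.17, 13.66 and 13.88 on the log2 scale for let-7g-5p and 7.82, 9.06 and 10.32 for miR-98-5p. For miR-29a-3p the highest correlations were lower, with miR-148b-3p (0.824), miR-708-3p (0.821) and miR-324-5p (0.814). The lists of the 3 guides had no miRNA in common.

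**Figure D4:**
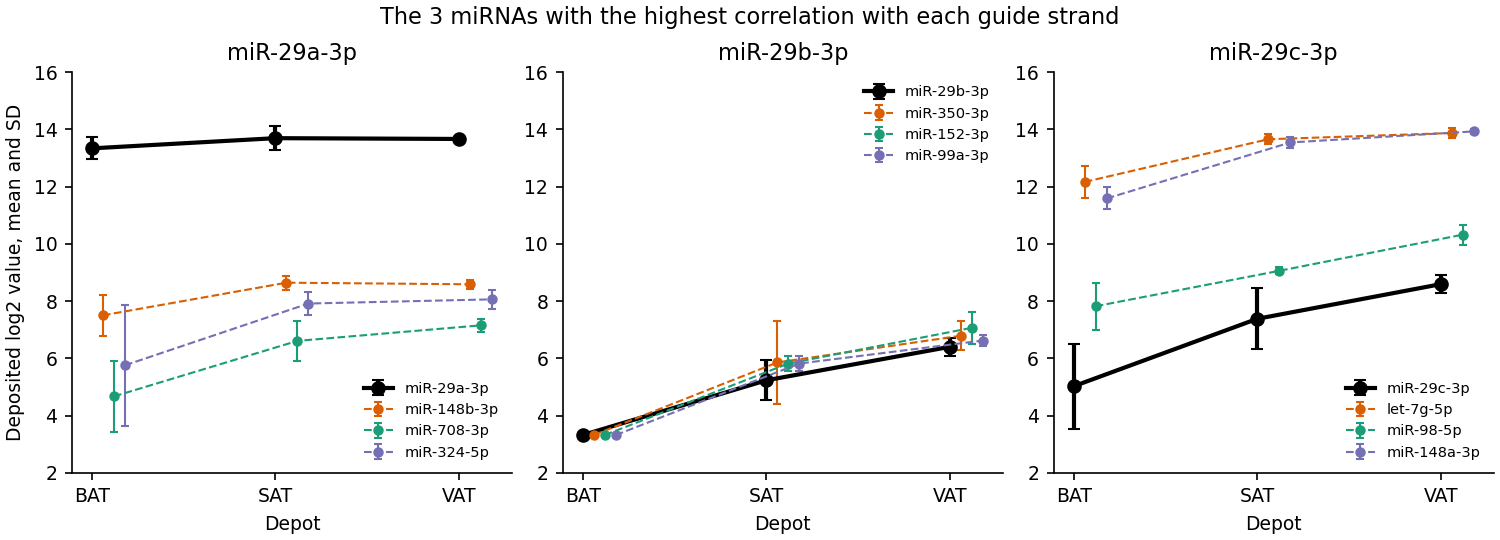
Mean log2 values (y axis) of each miR-29 guide strand and its 3 most correlated tested miRNAs, by depot (x axis). Error bars are the SD (n = 3), and the Pearson correlations were taken over the 9 libraries. The miRNAs drawn with miR-29b-3p all start at the lowest value in BAT, and those drawn with miR-29c-3p lie at higher levels with the same order of depots.

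Other miRNAs that have been linked to fibrosis were counted beside miR-29, which is itself known as antifibrotic. Of 6 miRNAs written of as promoting fibrosis 5 were tested, and in VAT/BAT 3 were called as higher and 0 as lower, where 39.4% of all tested miRNAs were higher. These were miR-21a-5p (log2 fold change 4.09, limma adjusted p = 0.000639), miR-199a-3p (3.15) and miR-199a-5p (3.14), of which both miR-199a strands are also stroma markers. In SAT/BAT the same 3 were higher and 0 lower, against 22.4% higher among all tested. In VAT/SAT 2 were higher, miR-199a-3p (0.95) and miR-192-5p (0.89), and 0 lower, against 8.45%. MiR-192-5p had log2 fold changes of -1.47 in VAT/BAT and -2.36 in SAT/BAT, the latter without overlap, and was called in neither. MiR-214-3p was not called in any comparison. The list medians were 3.14, 2.20 and 0.85 in VAT/BAT, SAT/BAT and VAT/SAT, against 0.40, 0.26 and 0.10 over all tested miRNAs. Of 11 miRNAs written of as opposing fibrosis 8 were tested. In VAT/BAT 3 of them were higher, such as miR-26a-5p (log2 fold change 2.25) and miR-24-3p (1.81), and 1 lower, miR-30c-5p (-1.09), close to the 39.4% higher among all tested miRNAs. In SAT/BAT 4 were higher and 1 lower, and in VAT/SAT 0 were higher and 1 lower, with medians of 0.88, 1.60 and 0.042. In VAT/BAT the change of miR-29c-3p (3.57) was above the median of both lists, and that of miR-29b-3p (3.08) lay between the medians. Without BAT 15 the change of miR-29c-3p was 2.72, below the median of 3.14 of the promoting list.

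Of 13 miRNAs linked to insulin signalling and glucose handling 11 were tested. In VAT/BAT 8 were higher and 2 lower, in SAT/BAT 7 higher and 1 lower, and in VAT/SAT 2 higher and 3 lower, with medians of 1.57, 1.13 and -0.025. Over all tested miRNAs 39.4% were higher and 26.8% lower in VAT/BAT, with 22.4% and 18.1% for SAT/BAT and 8.45% and 7.58% for VAT/SAT, and the medians were 0.40, 0.26 and 0.10. The largest changes in VAT/BAT were those of miR-26b-5p (log2 fold change 3.44), miR-143-3p (2.43) and miR-320-3p (-2.40). The change of miR-29c-3p (3.57 ± 0.73 SE) was larger than each of these over all libraries. Without BAT 15, where it was at the lowest value, it was 2.72, below the 3.44 of miR-26b-5p over all libraries. The order of miR-29c-3p and miR-26b-5p is therefore not settled. The change of miR-29b-3p (3.08) lay below that of miR-26b-5p and above that of miR-143-3p. That of miR-29a-3p (0.33) was smaller in absolute size than each.

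Some markers of other cell types moved with miR-29b-3p and miR-29c-3p and others did not. The 3 stroma markers (miR-199a-3p, miR-199a-5p and miR-214-3p) summed to 2351 to 3023 in BAT, 7008 to 8003 in SAT and 10586 to 13062 in VAT, the same order without overlap, with none at the lowest value. The miR-199a strands carried this order, while miR-214-3p had log2 fold changes of -0.11 (VAT/BAT), 0.063 (SAT/BAT) and -0.17 (VAT/SAT), none of them called. The endothelial pair miR-126-3p and miR-126-5p summed to 2967 to 4812 in BAT, 9921 to 12501 in SAT and 11917 to 12798 in VAT. Of the 6 leukocyte markers, miR-223-3p, miR-142-3p and miR-155-5p were at the lowest value in BAT, and the sums were 20411 to 27671 in BAT, 13338 to 113176 in SAT and 8426 to 20600 in VAT. The sums are mostly miR-150-5p, which was lower in VAT than in BAT (log2 fold change -1.41), whereas miR-223-3p (6.76), miR-142-5p (4.01), miR-146a-5p (3.19) and miR-142-3p (1.16), the other 4 of the 5 tested, were higher by limma. In SAT/BAT only miR-223-3p (5.83) was called. Over all tested miRNAs 39.4% were higher and 26.8% lower in VAT/BAT, and 22.4% were higher in SAT/BAT. MiR-223-3p and miR-142-3p passed the filter only through WAT libraries. SAT 20 had the highest values of miR-29a-3p, miR-29b-3p and miR-29b-1-5p in SAT together with the highest leukocyte sum. MiR-29c-3p was instead highest in SAT 19 (log2 value 8.17 against 7.81 in SAT 20). The red cell markers summed to 209904 to 210293 in BAT against 29794 to 39759 in SAT and 31543 to 59987 in VAT. This sum is mostly miR-486-5p (log2 fold change -2.49 in VAT/BAT), whereas miR-451a was higher in VAT than in BAT (2.21, limma adjusted p = 0.00151) and miR-144-3p was at the lowest value. The epithelial markers were all at the lowest value in BAT, and the neuron markers miR-9-5p and miR-124-3p were at or near it everywhere, with a sum of 20 to 41.5. The part of these cell types in the miR-29 differences was not tested.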

How the data were processed

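Small RNA libraries of BAT, SAT and VAT (3 each) were sequenced by the authors, who aligned reads to miRNA hairpins, retained mature strands and split reads with more than 1 origin in proportion. Counts were scaled by each library's usable reads, with an added constant of 40 per the study's methods. The deposited values are normalized log2 values of 1251 miRNAs, with 10 as the lowest value before log2. The libraries hold nearly the same values at the same ranks, as after quantile normalization, so a value reflects a rank within its library, and differences in total miRNA are removed. The labels name the build mm10, and the mapping tool's version was not used here.

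Values were analysed as deposited. The 343 miRNAs exceeding the lowest value in 3 or more of 9 libraries were fitted in R 4.3.3 with lmFit and eBayes of limma 3.58.1 (6 libraries per comparison, no block). Within-library differences, shares and correlations were computed in Python 3.11.15 with numpy 2.4.6 and pandas 2.3.3. The text names all miR-29 strands, the 3 miRNAs most correlated with each guide, those sharing its seed, and lists linked to fibrosis, insulin signalling and cell types. The markers miR-126, miR-142 and miR-486 were matched by these older names. Members and lists were chosen with earlier results of these data known. Alternatives were other offsets (lowest value subtracted and 1 added, a further 40), no filter, the 171 higher miRNAs, quantile normalization, a common median, miR-191-5p as the reference, 1 fit of all libraries, no moderation, the study's rule of an unadjusted p and a fold change, replicate blocks and each library left out. The limma fits were tested on simulated data, with changes given to miRNAs from the higher 171. A log2 change of 1 was called for 1.0% of the changed miRNAs in VAT/BAT, 0.0% in SAT/BAT and 2.08% in VAT/SAT. For a log2 change of 2 it was 85.3%, 84.8% and 83.4%. The simulation changed 60 of 343 miRNAs, fewer than the 227 called in VAT/BAT and the 139 in SAT/BAT. An adjusted p depends on that share, so the simulated rates are not those of these 2 comparisons. In VAT/BAT some changes near 1 were called, such as miR-30c-5p (-1.09) and miR-126-5p (1.10). Others were not, such as miR-365-3p (-1.08). A missing call at a log2 change near 1 does not show equal levels.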

Additional observations from a re-analysis of the deposited data

How the results depend on the processing

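The call of miR-29b-3p in VAT/BAT held under all 16 alternatives that could be run for it (limma adjusted p 4.42e-05 to 0.00427). Leaving out a BAT library could not change its log2 difference of 3.08, as every BAT library was at the lowest value. Quantile normalization and a common median were applied to values that already looked quantile normalized. The number of miR-29 strands called in VAT/BAT was 2 and became 1 among the 171 higher miRNAs, which do not include miR-29b-3p; it was 2 to 3 with 1 library left out. Without the filter miR-29c-3p was lost there (adjusted p 0.103), while miR-29b-1-5p was gained (0.0466), as it was with the lowest value subtracted (0.00155) and without moderation (0.0137). In SAT/BAT the number was 1; it became 0 without the filter, 2 (with miR-29c-3p) in 1 fit of all libraries, stayed 1 among the 171 higher miRNAs with miR-29c-3p (0.0451) in place of miR-29b-3p, and 0 to 1 with 1 library left out. In VAT/SAT it was 0, became 1 (miR-29b-3p) at an unadjusted p under 0.05 with the fold change that the study required, and was 0 with any library left out. The cause of these moves was not tested.

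Over the depots, the difference between miR-29a-3p and miR-29b-3p kept its call in 11 of 11 alternatives, with a BAT minus VAT value of 0.996 to 5.91 against 2.75. With any library left out the depots still did not overlap, and the exact permutation p stayed at 0.00357. These runs therefore add no support, and in BAT miR-29b-3p was always at the lowest value. The difference between miR-29a-3p and miR-29c-3p (BAT minus VAT 3.24) was 4.47 with the lowest value subtracted (exact permutation adjusted p 0.0643). It was 2.28 to 3.97 with 1 library left out. That between miR-29c-3p and miR-29b-3p (-0.49) turned to 1.44 with the lowest value subtracted and was -0.99 to 0.37 with 1 library left out. In VAT/SAT, miR-29a-3p turned to 0.14 relative to miR-191-5p and was -0.18 to 0.21 with 1 library left out. MiR-29b-1-5p turned to -0.020 with a further 40 added, -0.0094 with a common median and -0.26 with quantile normalization, and was -0.20 to 0.46 with 1 library left out. Differences between 3p and 5p strands were not tested, as no 5p strand was above the lowest value in every library.

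Of all 343 miRNAs, 227 were called in VAT/BAT (128 without the filter, 119 of the 171 higher miRNAs), 139 in SAT/BAT (74 without the filter) and 55 in VAT/SAT. The last count was 4 without the filter, 2 relative to miR-191-5p, 30 in 1 fit of all libraries, 13 without moderation, 122 at the unadjusted p, and 0 to 49 with 1 library left out, 0 without SAT 19. As a replicate block, library order gave 0 such calls and the number in the labels 55; libraries of the same number shared little (mean correlation of deviations 0.0463 over 4 pairs, -0.139 to 0.270), so no pairing was used. The replicate block changed no call of a miR-29 strand. With depth unknown, a strand at the lowest value cannot be called absent, and 3 libraries per depot limit the precision.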
